A study of Mus musculus with 8 samples.

Results

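Kinesins are motor proteins that use ATP to walk along microtubules or to take microtubules apart. One set of them builds and drives the spindle and completes cell division, and another set carries vesicles, mitochondria and other cargo. The mouse oocyte has no centrioles, and its meiotic spindle is assembled from many microtubule organising centres by motors such as Kif11, so spindle kinesins belong to the maternal supply of the egg. The kinesin genes described here were the 37 probe sets, of 34472 on the array, that carried exactly 1 gene symbol of the form Kif followed by a number and optional letter. Each of the 37 symbols had a single probe set, and the 9 other rows with a Kif symbol (among them Kifc1, Kifap3 and the pseudogene Kif4-ps) were not members. By their known roles 13 were classed as spindle and division kinesins, 13 as cargo transport kinesins and 11 as cilium, microtubule-growth and other kinesins.

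The samples were total RNA labelled as oocytes of 8-week-old female ICR mice, an outbred strain, on 8 Affymetrix MoGene 2.1 ST arrays. In 4 of the samples the animals had received bisphenol S (BPS), an analogue of bisphenol A, by oral gavage for 7 days, with 0.1 ng given daily for each g of body weight, in 50% glycerol with 0.1% DMSO. The other 4 were untreated controls, for which no vehicle is named, and all animals ate a diet free of phyto-oestrogens. The protocols speak of taking out ovaries although the tissue label is oocyte, and they do not say whether an array holds 1 animal or a pool, so p-values measure the spread between these samples. Signals are on the log2 scale of RMA, a method that summarises the probes of a gene. A difference is the BPS mean minus the control mean, given with its SE from limma, and a group mean is given with its SD over n = 4 arrays.

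The arrays held an oocyte profile. All 12 oocyte markers lay above the background level of 4.53, below which lay 95% of 1732 probe sets for olfactory and vomeronasal receptor genes and genes of the Y chromosome. Their mean per array ran from 9.50 to 9.58 in BPS and from 9.45 to 9.62 in control arrays. Of 10 granulosa and cumulus cell markers 2 lay above background, with means per array from 4.45 to 4.67 in BPS and from 4.37 to 4.48 in control arrays. These were Inha, an inhibin subunit, with 5.55 ± 0.69 in BPS and 4.99 ± 0.38 in control arrays (SD, n = 4 each), and Nr5a2, a nuclear receptor. Amh, Fshr and Foxl2 lay below background, and the part of granulosa RNA in the kinesin values was not tested. In such bulk samples fewer cells of a type and less RNA per cell cannot be told apart. None of 8 theca and stroma, none of 4 blood and 1 of 4 epithelial markers (Krt8, a keratin) lay above background. The 4 proliferation markers, which oocytes also hold, were all above it.

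Most spindle kinesin promoters held the letters TTTGAA, and 1 transport kinesin gene did. The cell cycle genes homology region, TTTGAA, and the CCAAT box are short elements known from promoters of genes expressed in mitosis. Both were searched on both strands in windows from 250 bases before to 50 after each start, taken from RefSeq on GRCm38.p6. The searches were independent, so a base could count in both. Windows were given for 31 of the 37 genes. TTTGAA was found in 9 of 12 spindle and division genes, in 1 of 10 transport genes and in 2 of 9 other kinesin genes, and in 17.9% of all 32851 promoters. CCAAT was found in 7 of 12, 3 of 10 and 4 of 9 genes, and in 37.4% of all promoters. Both stood together in 46.2% of the 13 spindle kinesin windows, in 0 of the 12 transport windows and in 6.95% of all. A match is a description of letters and not of a bound site. Some starts lay well inside the gene span, as in Kif14, Kif2c, Kif27, Kif3a, Kif26a and 1 window of Kif1a. The TTTGAA matches of Kif14, Kif2c, Kif27 and Kif1a come from such windows. Whether these starts are used in oocytes was not tested.

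3 spindle kinesin promoters are shown because TTTGAA stood at nearly the same place in each, beginning 19 bases before the start in Kif11 and Kif15 and 17 in Kif22. That of Kif3a, the transport kinesin with the highest signal, and that of Kif26a, the gene with the smallest p below, are shown beside them. Each line gives the 100 bases before the start on the gene's strand, and capitals mark TTTGAA or CCAAT on either strand (TTCAAA and ATTGG on the other). The stretches are chr19:37376282-37376381 (plus strand) for Kif11, chr9:122950981-122951080 (plus) for Kif15, chr7:127042421-127042520 (minus) for Kif22, chr11:53567269-53567368 (plus) for Kif3a and chr12:112146108-112146207 (plus) for Kif26a.
Kif11: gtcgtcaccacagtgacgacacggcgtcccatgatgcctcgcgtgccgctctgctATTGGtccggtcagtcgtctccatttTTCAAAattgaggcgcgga
Kif15: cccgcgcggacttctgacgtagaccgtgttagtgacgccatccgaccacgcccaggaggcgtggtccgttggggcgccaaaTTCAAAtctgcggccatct
Kif22: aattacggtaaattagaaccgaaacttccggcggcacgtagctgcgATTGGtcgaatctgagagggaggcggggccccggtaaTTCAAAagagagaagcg
Kif3a: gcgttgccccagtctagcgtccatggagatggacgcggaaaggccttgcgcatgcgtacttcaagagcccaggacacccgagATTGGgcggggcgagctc
Kif26a: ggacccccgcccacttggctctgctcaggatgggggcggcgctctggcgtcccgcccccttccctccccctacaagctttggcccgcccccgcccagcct

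In Kif11 and Kif22 a CCAAT box on the other strand lay before the TTTGAA letters, beginning 45 and 54 bases before the start. In Kif18b, Kif20b, Kif23 and Kif4 a TTTGAA match lay after the start, and in Kif14 and Kif2c it lay 228 and 103 bases before it. The start used for Kif14, 136467848, lay inside a gene spanning 136466301 to 136555938. That of Kif2c, 117178772 on the minus strand, lay inside a gene spanning 117159633 to 117182624. Kif18a and Kif2a held neither motif in these windows, and Kif2b held CCAAT alone. Among transport kinesins the only TTTGAA match was in 1 of the 2 windows of Kif1a, and Kif1b, Kif3a and Kif3b held CCAAT alone. The start of that Kif1a window, 93082480 on the minus strand, lay inside a gene spanning 93015455 to 93102039.

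Spindle and division kinesins were the class with the largest share of members above background. Of the 13, 11 lay above it, compared with 6 of 13 transport and 2 of 11 other kinesins, and with 29.7% of all probe sets. With the 99th percentile of those receptor and Y-linked probe sets as background, 5.12, the counts were 11, 2 and 1. Probes differ in affinity, so signals of different genes do not rank their abundance. Class medians of the level were 6.61, 4.37 and 4.23 in the same order.

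**Figure D1:**
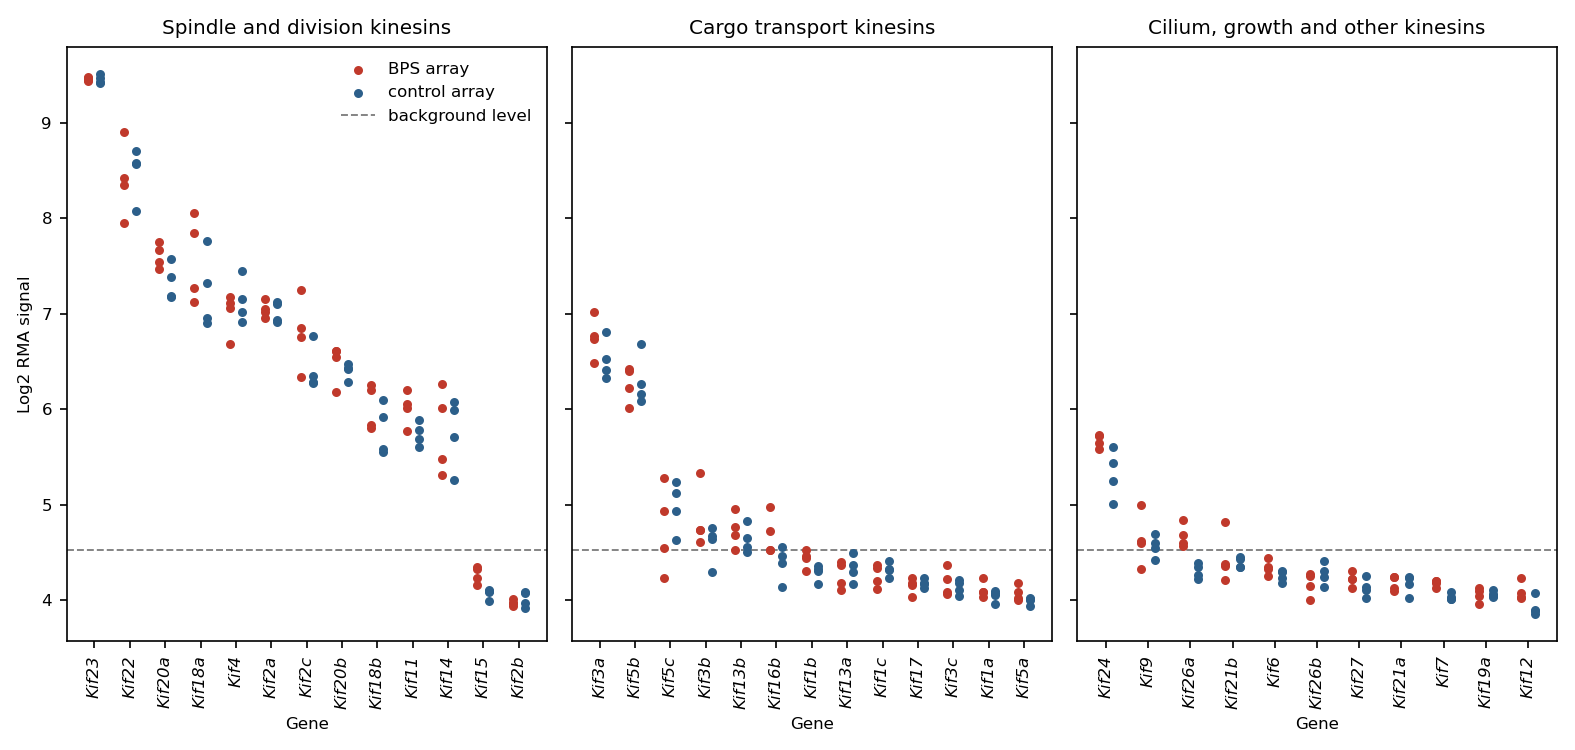
Log2 RMA signal (vertical axis) of each of the 37 kinesin genes (horizontal axis) in the 4 BPS arrays (red, left of each pair) and the 4 control arrays (blue), by class. Points are single arrays and the dashed line is the background level of 4.53. Of 13 spindle and division kinesins 11 lie above the line, of 13 transport kinesins 6 and of 11 others 2.

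Kif23 and Kif22 had the highest signals among the spindle kinesins. Kif23 is the motor of centralspindlin, which bundles the central spindle and directs cytokinesis. Its signal was 9.45, 9.47, 9.44 and 9.48 in BPS arrays and 9.51, 9.47, 9.42 and 9.43 in control arrays. The groups overlapped fully, and the difference was 0.00 ± 0.04 (SE), with a 95% interval from -0.09 to 0.10. This was the narrowest interval of the 13. Kif22, a chromokinesin that pushes chromosome arms, stood at 7.95, 8.90, 8.35 and 8.42 in BPS and at 8.57, 8.58, 8.70 and 8.08 in control arrays. Its BPS values included both the lowest and the highest of the 8, and the difference of -0.08 ± 0.21 (SE) was smaller than the spread in either group.

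Kif20a, the motor that carries the chromosomal passenger complex to the central spindle, came next by signal. It stood at 7.47, 7.54, 7.67 and 7.75 in BPS arrays and at 7.18, 7.39, 7.19 and 7.57 in control arrays. A single control array lay within the BPS range. The difference was 0.28 ± 0.10 (SE, limma unadjusted p = 0.0274, limma adjusted p = 0.408).

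No kinesin passed the test of BPS against control in the fit without a block, and Kif26a passed in the blocked fits given with its values. In limma, adjusted over all 34472 probe sets by Benjamini and Hochberg, 0 of the 37 had an adjusted p under 0.05, and 0.0087% of all probe sets did (3 in number). The smallest adjusted p was 0.276. At an unadjusted p under 0.05 there were 8 kinesins, all higher in BPS, or 21.6% of the members, beside 11.1% of all probe sets in either direction and 7.99% as higher. Of the 19 members above background 4 had such a p in this fit, all higher (21.1%), close to the 20.1% of all probe sets at that level, 16.3% as higher. When the fit was made on the probe sets above background alone, 1 of them did. Of the 18 members below background 4 had such a p in the fit over all probe sets (22.2%), all higher. In that fit 3827 of all 34472 probe sets had one, and 2061 of these were among the 10236 above background. The share among the remaining probe sets was thus under the 11.1% of all, and whether the 4 members exceed it was not tested. Without BPS array 3, BPS array 4 or control array 1 the 8 kinesins were 4, and with quantile normalization 5. The p of 4 kinesins, all higher in BPS, was under 0.05 in the authors' deposited table, as was that of 5.31% of all its probe sets, and the FDR of no kinesin was.

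The whole table leaned to the BPS side. The median difference over all probe sets was 0.03, over those above background 0.12, and after quantile normalization of the same values 0.00 for both. Of the 37 kinesins 27 differences were positive and 10 negative, with a median of 0.08, and 73.0% positive compares with 60.0% of all probe sets and 71.0% of those above background. After quantile normalization 23 were positive and the median was 0.04.

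**Figure D2:**
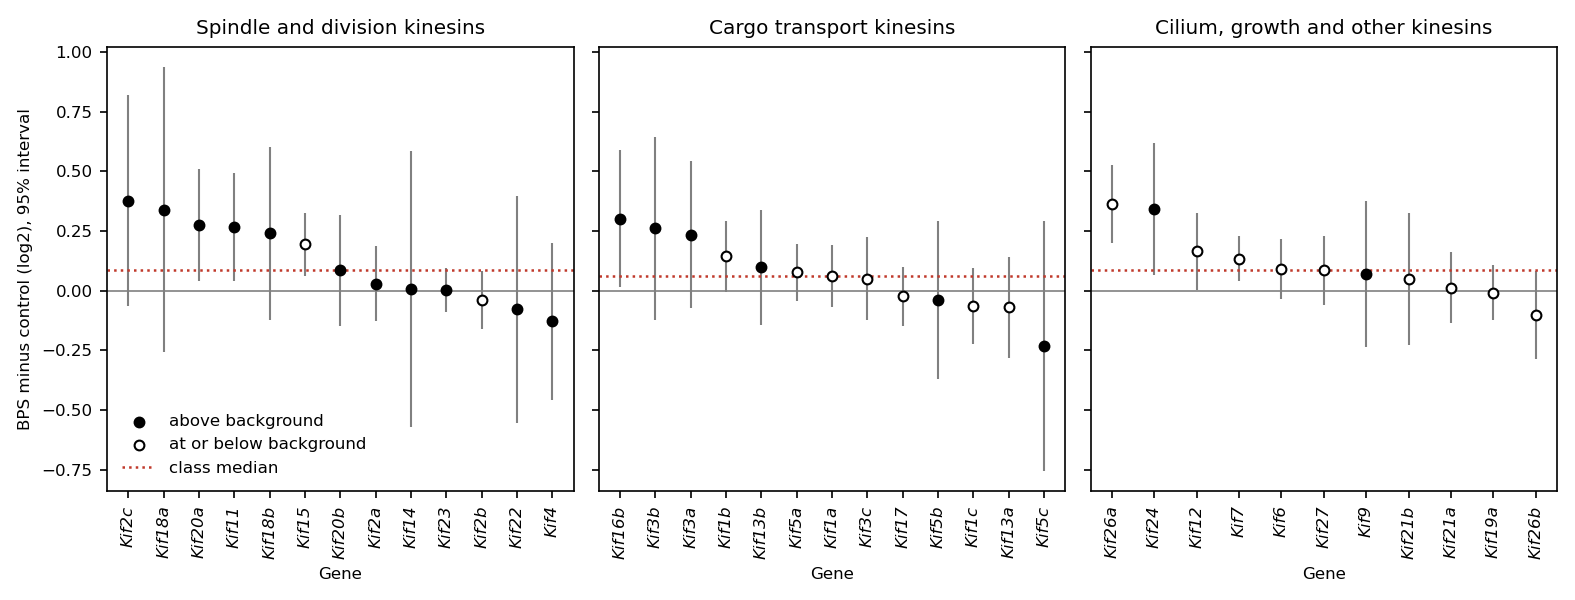
BPS minus control in log2 units (vertical axis) for the 37 kinesin genes (horizontal axis), by class, with 95% limma intervals. Filled points lie above background, open points do not, and the dotted line is the class median (0.09, 0.06 and 0.09 from left to right). The values run from -0.23 for Kif5c to 0.38 for Kif2c, and 8 intervals lie wholly above 0.

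The spindle and division kinesins had a median difference of 0.09 and the transport kinesins one of 0.06. The medians thus differed by 0.02. Taken array by array relative to the control means, the spindle minus transport difference of class medians had an SD of 0.07 over BPS arrays. That is a spread of single arrays and not an error of the 0.02. The direction between the classes was not stable: after quantile normalization the medians were -0.01 and 0.04, and among members above background 0.09 and 0.17. Without BPS array 1 the spindle median was 0.17 and the difference between the medians 0.12, and without BPS array 2 that difference was -0.02. Positive differences were found in 10 of 13 spindle kinesins, 8 of 13 transport kinesins and 9 of 11 others. After quantile normalization the counts were 6, 8 and 9. The median of the 11 others was 0.09, or 0.06 on quantile-normalized values.

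The array values show where the small shift of the spindle class lay. The median over its members, each taken relative to its control mean, was -0.01, 0.15, 0.21 and 0.14 in BPS arrays 1 to 4 and -0.05, 0.04, 0.03 and -0.03 in control arrays. BPS array 1 lay within the control range and the other BPS arrays above it. For transport kinesins the values were 0.02, 0.05, 0.18 and 0.02 in BPS and -0.04, 0.05, 0.01 and 0.00 in control arrays, so that only BPS array 3 lay above the control range. BPS array 3 had the highest median in all 3 classes.

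**Figure D3:**
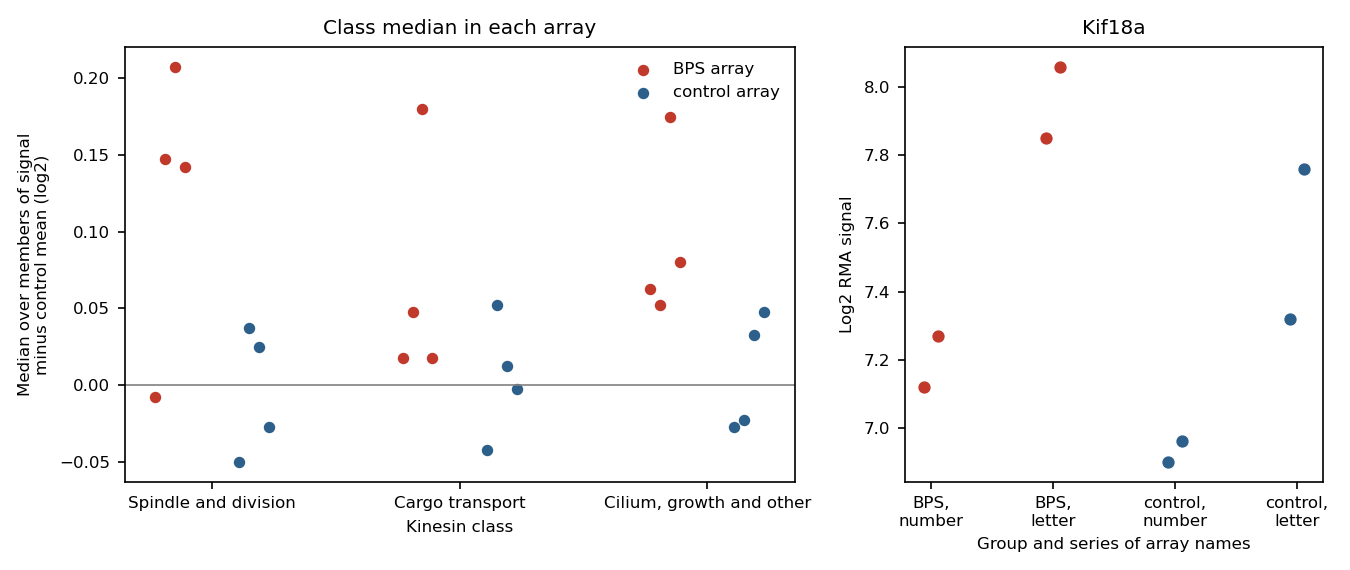
Left, the median over the members of each class of the signal minus that gene's control mean (log2, vertical axis) in each BPS array (red) and control array (blue). Right, the log2 signal of Kif18a by group and by the series of the array's name; both letter-named arrays of a group lie above both number-named ones.

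Kif26a gave the smallest p of the family. It is an atypical kinesin without motor activity that is known in mouse as a regulator of enteric nerve development. The gene spans 112143974 to 112181747 of chromosome 12 (GRCm38.p6). Its signal was 4.60, 4.57, 4.68 and 4.84 in BPS arrays and 4.22, 4.27, 4.39 and 4.35 in control arrays. All BPS values exceeded all control values. They lay above the background level of 4.53 and the control values below it, and the mean over the 8 arrays was 4.49. The difference was 0.37 ± 0.07 (SE, 1.29-fold), with an limma adjusted p of 0.276.

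Of the 37 members, Kif26a alone passed when arrays were blocked. With the replicate number as a block its limma adjusted p was 0.0473 (1.99% of all probe sets passed, 1.59% as higher). The labels do not name arrays of the same number as pairs. With a block for the array names, in which 2 arrays of each group carry a number and 2 a letter in the authors' deposited table, the limma adjusted p was 0.0163 (3.47% passed, 2.78% as higher). It was 0.0257 when quantile normalization was added to that block (1.77% passed, 1% as higher). Arrays with the same replicate number also shared a style of name, so the replicate block contains the array-series block. The blocked fits are thus not independent of each other. The difference was 0.34 among the arrays named with a number and 0.39 among those named with a letter. In the authors' deposited table its p was 0.0033 and its FDR 0.864. Its relative Kif26b stood at 4.18 ± 0.12 in BPS and 4.28 ± 0.11 in control arrays (SD, n = 4 each), both below background. With the replicate block its unadjusted p was under 0.05 as lower, as was that of 5.5% of all probe sets.

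2 further kinesins had groups that did not overlap. With Kif26a they made 3 of 37 members (8.11%), beside 5.8% of all probe sets, 4.13% with BPS higher. All 3 had mean signals below background. Among the 19 members above background there were 0, beside 8.35% of all probe sets above background. Kif15, a spindle motor that can take over from Kif11, stood at 4.35, 4.16, 4.23 and 4.33 in BPS and at 4.11, 3.99, 4.09 and 4.10 in control arrays. Kif7, a ciliary kinesin of Hedgehog signalling, stood at 4.13, 4.20, 4.20 and 4.18 in BPS and at 4.04, 4.02, 4.02 and 4.09 in control arrays. All 8 values of both genes lay below background, so these differences of 0.20 ± 0.06 and 0.14 ± 0.04 (SE) are between signals that receptor genes also give. Their limma adjusted p were 0.378 and 0.383.

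Kif11 and Kif24 were well above background. Kif11, the plus-end motor that pushes spindle poles apart, stood at 5.77, 6.06, 6.01 and 6.20 in BPS and at 5.69, 5.78, 5.89 and 5.61 in control arrays. BPS array 1 lay within the control range, and the difference of 0.27 ± 0.10 (SE) had an limma adjusted p of 0.408. Kif24, a centriolar kinesin that restrains cilium formation, stood at 5.73, 5.72, 5.65 and 5.58 in BPS and at 5.25, 5.61, 5.01 and 5.44 in control arrays. The BPS arrays were tightly grouped and the control arrays were not, with SDs of 0.07 and 0.26, and the difference of 0.34 ± 0.12 (SE) had an limma adjusted p of 0.402. After quantile normalization the differences were 0.09 for Kif11 and 0.19 for Kif24.

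Of the other kinesins with an unadjusted p under 0.05, Kif20a, given above, had a mean signal of 7.47. Kif16b and Kif12 were close to background or below it. Kif16b, a motor of early endosomes, stood at 4.53, 4.53, 4.73 and 4.98 in BPS and at 4.14, 4.39, 4.47 and 4.56 in control arrays. The groups overlapped in 1 control array, and the difference was 0.30 ± 0.13 (SE, limma adjusted p = 0.435). Kif12 stood at 4.04, 4.03, 4.24 and 4.08 in BPS and at 3.86, 3.90, 3.89 and 4.08 in control arrays, all below background, with a difference of 0.17 ± 0.07 (SE, limma adjusted p = 0.440).

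**Figure D4:**
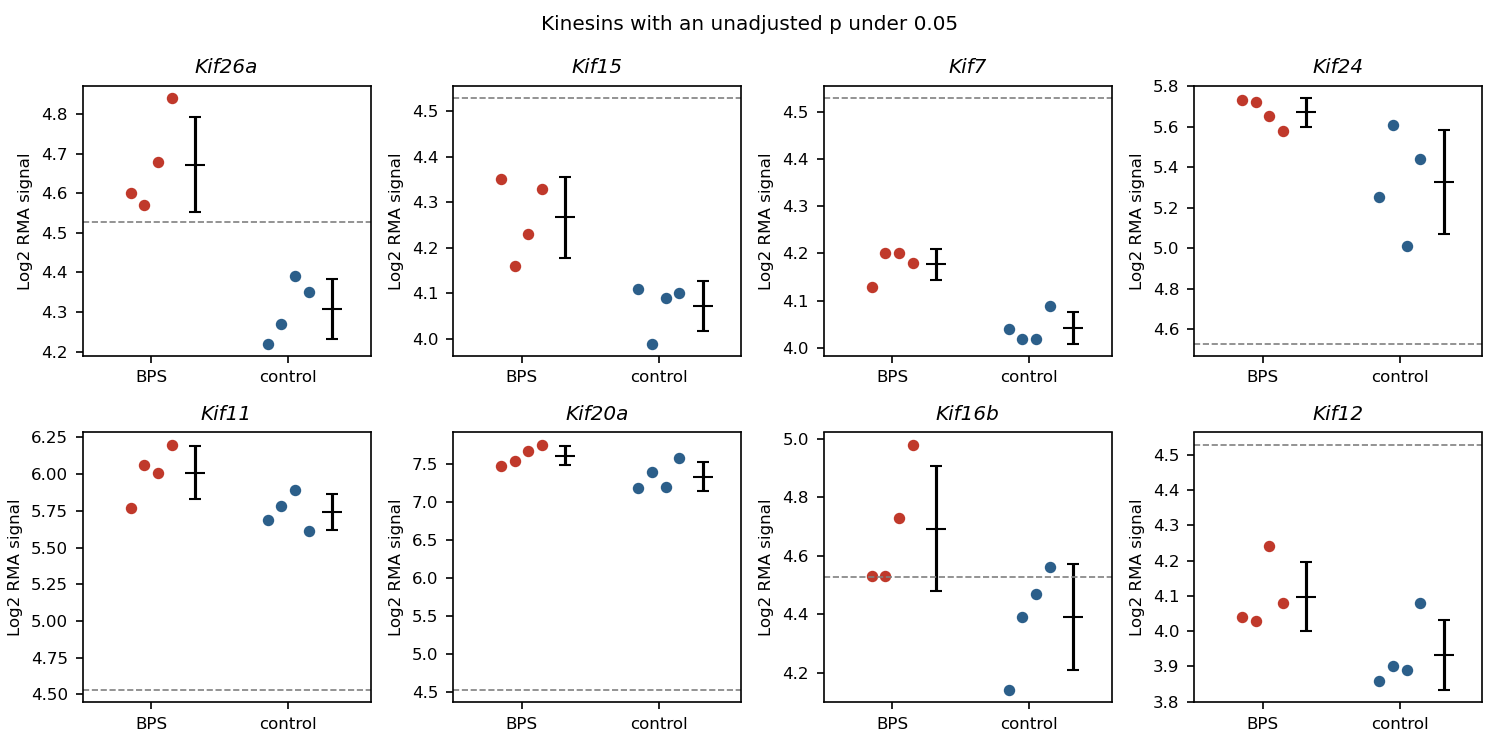
Log2 RMA signal (vertical axes, each with its own range) in the 4 BPS arrays (red, left) and the 4 control arrays (blue, right) for the 8 kinesins with an unadjusted limma p under 0.05. Bars give mean and SD, and the dashed line is the background level of 4.53. Kif26a, Kif15 and Kif7 have groups that do not overlap, and all values of Kif15, Kif7 and Kif12 lie below the line.

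Kif2c and Kif18b were higher in BPS on average, with 95% intervals that included 0. Kif2c, a depolymerase that corrects wrong attachments at centromeres, stood at 6.34, 7.25, 6.76 and 6.85 in BPS and at 6.77, 6.28, 6.35 and 6.29 in control arrays. Control array 1 lay apart from the other control arrays, and the difference was 0.38 ± 0.19 (SE, limma adjusted p = 0.489). Kif18b, a plus-end motor that shortens astral microtubules, stood at 5.84, 6.20, 6.26 and 5.81 in BPS and at 5.55, 6.10, 5.92 and 5.58 in control arrays. The groups overlapped, each BPS array was higher than the control array of the same number, and the difference was 0.24 ± 0.16 (SE, limma adjusted p = 0.571). With the replicate block its SE was 0.05 and its limma adjusted p 0.0959, although the labels do not name same-numbered arrays as pairs. With the array-series block its limma adjusted p was 0.504.

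Kif18a followed the array names more than the treatment. Kif18a, which dampens chromosome oscillation at the metaphase plate, stood at 7.12 and 7.27 in number-named and at 7.85 and 8.06 in letter-named BPS arrays. In control arrays it stood at 6.90 and 6.96 in number-named and at 7.32 and 7.76 in letter-named ones. Letter-named arrays were higher by 0.69 ± 0.10 (SE, limma adjusted p = 0.0153), a comparison added after the values were seen. Kif18a was the 1 kinesin of 37 past the threshold in that comparison, beside 5.51% of all probe sets (4.56% as higher). BPS minus control was 0.34 ± 0.26 (SE, adjusted p = 0.632). With the series as a block its limma adjusted p was 0.141, and within the 2 series the difference was 0.27 and 0.41.

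The remaining spindle kinesins had no unadjusted p under 0.05. Kif4, an X-linked chromokinesin, stood at 7.01 ± 0.22 in BPS and 7.14 ± 0.23 in control arrays. Kif2a, a depolymerase at spindle poles, stood at 7.05 ± 0.08 in BPS and 7.02 ± 0.11 in control arrays. Kif20b, a motor of late cytokinesis, stood at 6.49 ± 0.21 and Kif14, a motor of the midbody, at 5.77 ± 0.45 in BPS arrays, against 6.40 ± 0.08 and 5.76 ± 0.37 in control arrays (SD, n = 4 each, for all 4 genes). The difference of Kif4 was -0.13 ± 0.14 (SE), or -0.26 after quantile normalization. After it the differences of Kif20b, Kif14, Kif2a and Kif23 were also negative. Kif2b was below background in both groups, at 3.98 ± 0.03 in BPS and 4.02 ± 0.08 in control arrays.

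Of the transport kinesins above background, Kif3a, Kif3b, Kif5b and Kif5c belong to the kinesin-2 and kinesin-1 motors. Kif3a, the kinesin-2 subunit that also serves cilia, stood at 6.49, 6.74, 6.77 and 7.02 in BPS and at 6.33, 6.53, 6.81 and 6.41 in control arrays. The difference was 0.24 ± 0.13 (SE), and the groups overlapped. Its partner Kif3b stood at 4.61, 4.74, 5.33 and 4.74 in BPS and at 4.30, 4.67, 4.64 and 4.76 in control arrays, with a difference of 0.26 ± 0.17 (SE). BPS array 3 alone lay above all control values. Kif3c was below background, as was Kifap3, the adaptor subunit of kinesin-2, at 4.06 ± 0.11 in BPS and 4.04 ± 0.04 in control arrays (SD, n = 4 each).

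Of the 3 kinesin-1 heavy chains, Kif5b is the broadly expressed one. Its signal was 6.42, 6.22, 6.40 and 6.01 in BPS and 6.16, 6.68, 6.27 and 6.09 in control arrays, with the lowest value in a BPS array and the highest in a control array (difference -0.04 ± 0.14 SE). Kif5c, known mainly from neurons, stood at 4.55, 4.94, 5.28 and 4.24 in BPS and at 4.94, 5.12, 4.63 and 5.24 in control arrays. BPS arrays spanned more than the control range, and the difference of -0.23 ± 0.23 (SE) was the lowest of all members. Kif5a, another neuronal chain, was below background.

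The kinesin-3 motors were near background. Kif13b, which carries membrane cargo, lay above it at 4.74 ± 0.18 in BPS and 4.64 ± 0.14 in control arrays (SD, n = 4 each). Kif1a, Kif1b and Kif1c, which carry synaptic and other vesicles, Kif13a, and the kinesin-2 motor Kif17 lay below it, with differences from -0.07 for Kif13a to 0.15 for Kif1b. None of these had an unadjusted p under 0.05.

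Of the other kinesins only Kif24 and Kif9, a motor of motile cilia, had mean signals above background. Kif9 stood at 4.60, 4.62, 5.00 and 4.33 in BPS and at 4.55, 4.60, 4.70 and 4.42 in control arrays, with a difference of 0.07 ± 0.13 (SE). The groups overlapped fully. Kif6, Kif19a, Kif27, Kif21a and Kif21b, genes of cilia and of microtubule growth, were below background, with differences from -0.01 for Kif19a to 0.09 for Kif6.

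Genes that work with kinesins also held no call in the fit without a block, and Cenpe and Hmmr passed in blocked fits given below. Of 5 kinesins outside the symbol pattern, 17 kinesin partners and 24 dynein and dynactin genes, 0 passed over all probe sets in that limma fit. In it 1, 1 and 4 had an unadjusted p under 0.05, all higher in BPS. The 4 dynein and dynactin genes are 16.7% of their list, beside 7.99% of all probe sets and 16.3% of those above background as higher. Their median differences were 0.03, 0.09 and 0.14, beside 0.12 for all probe sets above background, and -0.01, 0.03 and 0.06 after quantile normalization.

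In the first list the smallest unadjusted p were those of Kifc3 and Cenpe. Kifc3, a minus-end motor, stood at 5.55 ± 0.26 in BPS and 5.16 ± 0.20 in control arrays (SD, n = 4 each), with groups that did not overlap (difference 0.40 ± 0.15 SE, limma adjusted p = 0.408). Cenpe, the kinetochore kinesin, stood at 6.75 ± 0.16 in BPS and 6.95 ± 0.12 in control arrays (difference -0.20 ± 0.09 SE, limma adjusted p = 0.460). Cenpe passed as lower with quantile normalization and the array-series block together (limma adjusted p = 0.0312; 0.772% of all probe sets passed as lower), and with neither block on the deposited values. Kifc1, the minus-end spindle motor, lay below background at 4.31 ± 0.12 in BPS and 4.28 ± 0.14 in control arrays; its sequence is close to that of Kifc5b, and whether the probe sets separate them was not analysed here.

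The kinesin partners included genes of the central spindle. Racgap1, the partner of Kif23 in centralspindlin, stood at 6.33 ± 0.13 in BPS and 6.25 ± 0.19 in control arrays, and Prc1, the bundler that Kif4 carries, at 8.70 ± 0.05 in BPS and 8.60 ± 0.19 in control arrays (SD, n = 4 each). Hmmr, a spindle protein that binds Tpx2, differed by 0.53 ± 0.21 (SE, limma adjusted p = 0.427) and passed with the array-series block (limma adjusted p = 0.0435, beside 2.78% of all probe sets as higher). It did not with the replicate block (limma adjusted p = 0.0637) or with quantile normalization added to the array-series block (limma adjusted p = 0.0935). Hmmr was also higher in letter-named than in number-named arrays, by 0.53 ± 0.10 (SE, limma adjusted p = 0.0324). Nusap1, a microtubule bundler, differed by 0.20 ± 0.10 (SE). In the dynein list 3 of 24 genes had non-overlapping groups with BPS higher (12.5%), and 1 of them, Dync1i1, lay below background. Another, Dctn1, lay close to it, with a mean signal of 4.535 beside a background level of 4.528. Of its arrays 4 BPS and 1 control lay above that level. Such groups were found in 4.13% of all probe sets and in 733 of the 10236 above background, where 16 of the 24 genes lay. Dctn1, the large dynactin subunit, and Ndel1, a dynein regulator, differed by 0.25 ± 0.08 and 0.30 ± 0.11 (SE), with limma adjusted p of 0.395 and 0.402.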

How the data were processed

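The authors deposited log2 signals, summarised at gene level with RMA and annotated with release 36 on mm10, per the file headers. The Transcriptome Analysis Console is named in the submitters' processing notes. The workbook and the series matrix hold the same signals (8 of 8 arrays). The workbook also holds the authors' deposited p-values and a score, a signed fold of control over treated; no source used here gives their test. Array medians ran from 4.15 to 4.21 and correlations between arrays from 0.941 to 0.982.

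BPS minus control was fitted over all 34472 probe sets with limma 3.58.1 (lmFit, eBayes; R 4.3.3), two-sided, without covariates, after a check on simulated data. The number of arrays limits the precision. Alternatives were quantile normalization, median centring, level filters, blocks, an intensity trend and leaving out arrays. After subtraction of group means, BPS and control arrays with the same replicate number correlated at 0.519, 0.383, 0.173 and 0.362, all over 0.1. By that rule the numbers were used as a block, although the labels name no pairs. Control 1 also correlated with BPS 2 at 0.453, control 3 with BPS 4 at 0.437 and control 4 with BPS 3 at 0.493. Arrays numbered 1 or 2 correlated with those numbered 3 or 4 of the other group at -0.553 to -0.268. These values do not single out same-numbered arrays as pairs. Array values are given for kinesins with an unadjusted p under 0.05 and the 3 with the highest signal per class, and for a few chosen after their values were seen (Kif2c, Kif18a, Kif18b, Kif3b). Members, classes and lists were chosen with earlier results of these data known. All 37 symbols matched RefSeq by accession. Python 3.11.15, pandas 2.3.3 and matplotlib 3.10.9 made tables and plots.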

Additional observations from a re-analysis of the deposited data

Results flagged for a closer look

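In 74 groups of 4 arrays (37 kinesins, each in BPS and control), 3 held an array far from the others, a distance that chance gives in about 1 group in 20. Kif20b stood at 6.18 in BPS array 1, with the other BPS arrays between 6.55 and 6.61. Kif2c stood at 6.77 in control array 1, with the others between 6.28 and 6.35, and Kif15 at 3.99 in control array 2, with the others between 4.09 and 4.11.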

How the results depend on the processing

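The count of kinesins past the adjusted threshold was 1 in place of 0, Kif26a each time, with the replicate block, with the array-series block, and with quantile normalization and the array-series block together (the last added after the data were seen). It stayed 0 in limma in the other alternatives and without any 1 array. The replicate block changed no other call among the kinesins, and left Kif26b under an unadjusted p of 0.05 as lower (a count of 1 in place of 0). Over all probe sets the count of 3 was 0 with quantile normalization or an intensity trend, 1 with median centring, 685 with the replicate block, 1195 with the array-series block, 611 with that block after quantile normalization, and 0 to 3 without 1 array, with 0 without BPS array 4 or any control array. The 8 higher kinesins at an unadjusted p under 0.05 were 5 with quantile normalization, 5 among probe sets above the median level, 1 when the fit held those above background alone, and 4 to 12 without 1 array, with 4 without BPS array 3, BPS array 4 or control array 1. The spindle kinesin median of 0.09 was -0.0067 with quantile normalization, with or without the array-series block, and 0.195 without Kif2a and Kif20b and with Kif21a and Kif21b counted as transport; the transport median was 0.17 among probe sets or members above background. Without 1 array the spindle median ran from 0.044 without BPS array 3 to 0.17 without BPS array 1, and the transport median from 0.023 without BPS array 3 to 0.087 without BPS array 4. The spindle minus transport difference of 0.02 was -0.081 among those above background, 0.145 with the changed classes and -0.018 to 0.12 without 1 array, with 0.12 without BPS array 1. At the 99th percentile background, 2 transport and 1 other kinesins were above it. Of 37 kinesins 25 kept their direction in all alternatives run. With quantile normalization, with and without the series block, Kif14 was -0.15, Kif20b -0.074, Kif23 -0.0067 and Kif2a -0.089, and with median centring Kif14 was -0.01, Kif23 -0.015 and Kif21a -0.005. Without 1 array, Kif14 ran from -0.16 to 0.16, Kif22 from -0.24 to 0.074, Kif23 from -0.01 to 0.02, Kif2a from -0.0075 to 0.064, Kif19a from -0.031 to 0.026, Kif21a from -0.034 to 0.04, Kif21b from -0.078 to 0.13, Kif9 from -0.051 to 0.17, Kif17 from -0.051 to 0.016, Kif3c from -0.011 to 0.089 and Kif5b from -0.11 to 0.089. The cause was not tested. Averaging several probe sets per gene was not run, since each gene had 1. The median 95% interval of a kinesin reached 0.21 to either side on the log2 scale, and a level below 4.53 cannot be told from probe sets without expected signal.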
